A study of Mus musculus with 48 samples.

Results

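The 5 genes described here, Cdkn1a, Cdkn1b, Cdkn1c, Cdkn2c and Cdkn2d, encode inhibitors of the cyclin-dependent kinases (CDKs). They were taken by symbol from a table of 20171 genes, and each symbol matched 1 row. Their mRNAs were measured by RNA immunoprecipitation and sequencing (RIP-seq) in mouse embryonic stem cells. Lysates were sequenced as such (inputs) and after incubation with magnetic beads carrying an antibody to the HA tag (immunoprecipitates, IPs). The bait was HA-AVI-Tnrc6a, the GW182 protein that joins Argonaute proteins to the enzymes that silence and decay mRNAs. The series asks how different silencing pathways meet on this protein.

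There were 4 genotypes. Untagged cells were 129S6/SvEvTac embryonic stem cells with the reporter GFP_5xT71BS, which carries binding sites for Trim71, and a stable transgene for FLAG-Cas9 and blasticidin resistance. HA-Tnrc6a cells had the same reporter and the HA-AVI tag on Tnrc6a. The remaining genotypes were the tagged cells with Ago2-/- or Upf1-/-. All 48 libraries therefore came from cells with the reporter, and every knockout was tagged. Input and IP of each genotype were sequenced in experiments 3 and 4, with 3 libraries in each of 16 groups. Cells were grown as triplicate dishes, and how many clones stand behind a genotype is not given in the sources used here. The spread between libraries may thus be that of parallel dishes, and p-values measure only that spread.

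CDK inhibitors act at the point where a cell commits to copy its DNA. The Cip/Kip proteins p21 (Cdkn1a), p27 (Cdkn1b) and p57 (Cdkn1c) bind cyclin-CDK complexes broadly, whereas the INK4 proteins p18 (Cdkn2c) and p19 (Cdkn2d) bind Cdk4 and Cdk6 and keep cyclin D away. Embryonic stem cells divide rapidly with a short G1 phase. There, Cdkn1a mRNA is a known target of microRNAs of the miR-290 and miR-302 families and of Trim71, an RNA-binding protein that represses the mRNAs it binds. Cdkn1a is also the classical target gene of p53.

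MicroRNAs recognise their targets mainly through the seed, bases 2 to 8 from the 5′ end. The files hold no microRNA measurements. The sequences below, from the RefSeq annotation of GRCm38.p6, are shown because they are the reported regulators of Cdkn1a and Cdkn1b, and the seed is in capitals. The first 5 belong to the miR-290 and miR-302 families and share the seed AAGUGCU, which stands in 5 of the 1738 mature mouse sequences of the table.
mmu-miR-291a-3p: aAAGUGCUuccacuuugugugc
mmu-miR-294-3p: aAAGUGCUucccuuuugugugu
mmu-miR-295-3p: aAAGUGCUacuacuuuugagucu
mmu-miR-302b-3p: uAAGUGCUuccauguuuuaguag
mmu-miR-302d-3p: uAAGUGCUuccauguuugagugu
The next 3, of the miR-17 and miR-106b families, are also reported to repress Cdkn1a. Their seed AAAGUGC stands in 7 of the 1738 sequences.
mmu-miR-20a-5p: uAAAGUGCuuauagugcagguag
mmu-miR-93-5p: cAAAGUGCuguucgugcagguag
mmu-miR-106b-5p: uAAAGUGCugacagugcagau
The last 2 are the reported regulators of Cdkn1b, with the seed GCUACAU, found in 3 of the 1738 sequences. The seeds of the 8 sequences reported for Cdkn1a thus differ from that of the 2 reported for Cdkn1b.
mmu-miR-221-3p: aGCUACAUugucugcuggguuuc
mmu-miR-222-3p: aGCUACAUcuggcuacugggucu

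Library totals ranged from 15383953 to 37179105 counts in inputs and from 11471544 to 73845953 in IPs, with the libraries of experiment 4 deeper. Levels below are CPM, counts brought to a common library size with the trimmed mean of M values (TMM) over all 48 libraries. Tnrc6a mRNA, that of the tagged protein, was at 56.6 to 105 CPM in untagged IPs and at 7686 to 58807 CPM in the tagged IPs. Ago2 mRNA was at 92.8 to 136 CPM in inputs labelled Ago2 knockout and at 205 to 323 CPM in HA-Tnrc6a inputs. Upf1 mRNA went against its label as a measure of loss, since it was higher, at 122 to 142 CPM, in inputs labelled Upf1 knockout than in HA-Tnrc6a inputs (74.4 to 99.6 CPM), so these are called the cells or libraries labelled Upf1 knockout. The mRNA alone does not show whether Upf1 protein was lost. All 8 markers of embryonic stem cells were in the table and summed to 6400 to 8089 CPM in the inputs. The 5 endoderm markers summed to 5.2 to 48.6 CPM, with the highest sum in a library labelled Upf1 knockout, and the 4 fibroblast markers to 27.3 to 57.4 CPM.

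In the lysates, Cdkn1a and Cdkn1b were the most abundant of these mRNAs per length and Cdkn2c was barely present. Levels were scaled to the gene lengths deposited with the counts as RPKM, CPM per kilobase. The medians over the 24 inputs were 11.2 for Cdkn1a, 10.5 for Cdkn1b, 6.86 for Cdkn1c, 6.66 for Cdkn2d and 0.21 for Cdkn2c. The input ranges of Cdkn1a (7.77 to 13.7) and Cdkn1b (7.64 to 14.2) overlapped almost wholly. The range of Cdkn1c (1.62 to 9.26) reached far below that of Cdkn2d (5.38 to 9.70) and overlapped it above. Cdkn2c had between 3 and 34 counts per input library, so only large changes in it were detectable at this depth. None of the 5 overlaps another RefSeq gene.

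**Figure D1:**
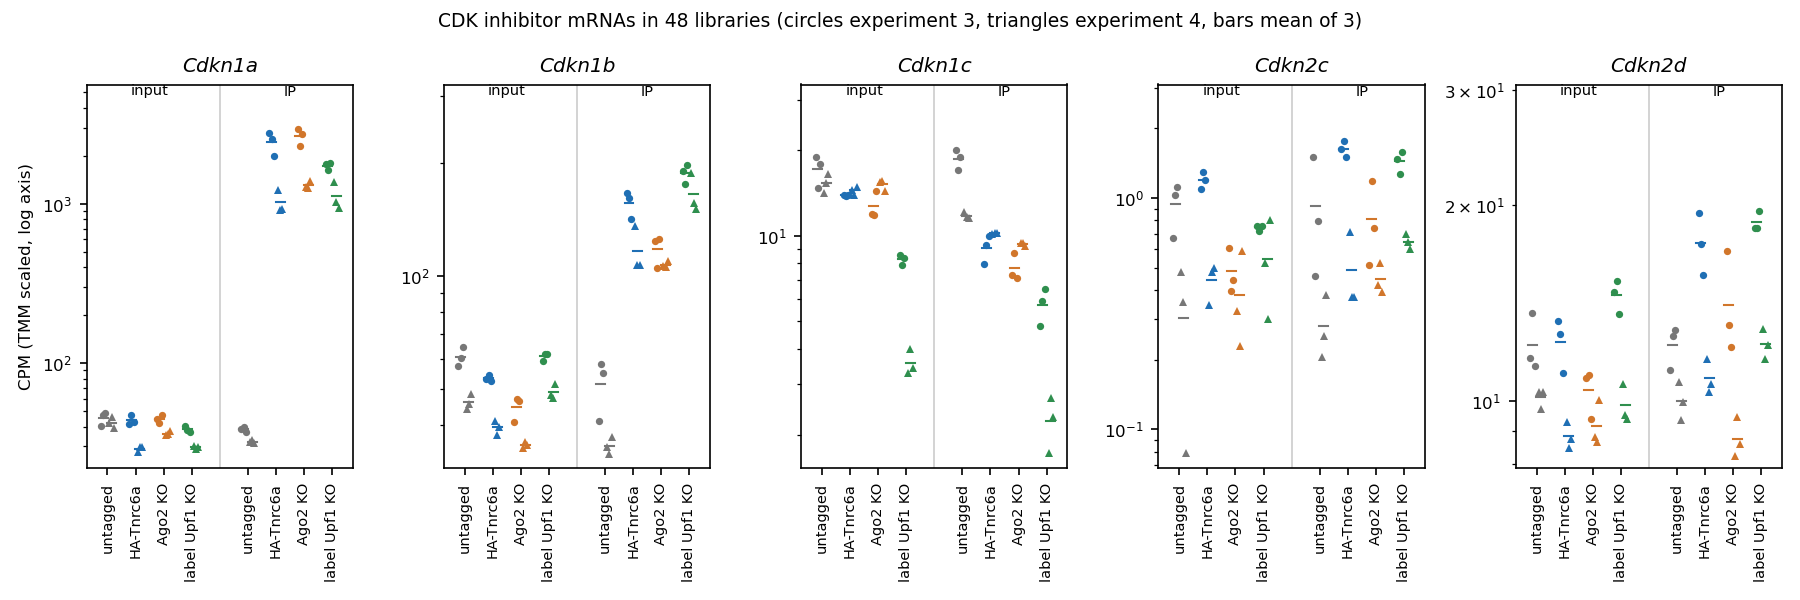
CPM (TMM scaled, log axis, with its own range in each panel) of the 5 inhibitor mRNAs in inputs and IPs of the 4 genotypes. Points are libraries, circles experiment 3 and triangles experiment 4, bars the mean of 3, "label Upf1 KO" the cells labelled Upf1 knockout. Cdkn1a in the tagged IPs sits between 912 and 2961 CPM, above 31.6 to 39.8 CPM in the untagged IPs, and Cdkn1c is lowest in the inputs and IPs labelled Upf1 knockout.

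Cdkn1a (ENSMUSG00000023067, 17:29090979-29100722 in GRCm38.p6) encodes p21, the inhibitor that arrests cells after DNA damage. It was recovered with HA-Tnrc6a more than 50-fold over untagged cells and ranked 15 of the 19993 genes tested. In untagged IPs it was at 38.8, 39.8 and 36.9 CPM in experiment 3 and at 32.0, 33.0 and 31.6 CPM in experiment 4. In HA-Tnrc6a IPs it reached 2764, 2546 and 1999 CPM in experiment 3 and 1217, 912 and 930 CPM in experiment 4. The lowest tagged library thus stood far above the highest untagged one, and the IP levels of experiment 3 lay above those of experiment 4. The recovery, the log2 ratio of IP to input in tagged cells less that in untagged cells, was 5.80 ± 0.11 (SE, 24 libraries), a fold of 55.6 with a 95% interval of 47.4 to 65.1 (edgeR quasi-likelihood test, Benjamini-Hochberg adjusted p = 9.8e-28).

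The recovery of Cdkn1a was of similar size in both knockouts. In IPs labelled Ago2 knockout it was at 2961, 2300 and 2756 CPM in experiment 3 and at 1269, 1254 and 1393 CPM in experiment 4. In IPs labelled Upf1 knockout it was at 1784, 1639 and 1794 CPM in experiment 3 and at 1378, 1032 and 945 CPM in experiment 4. Every one of these libraries exceeded every untagged IP. In experiment 3 all IPs labelled Upf1 knockout lay below all those of HA-Tnrc6a and Ago2 knockout cells. In experiment 4 the IPs labelled Upf1 knockout overlapped both, and the Ago2 knockout IPs lay just above the HA-Tnrc6a IPs. Over untagged cells, the log2 recovery was 5.87 ± 0.08 (58.4-fold, rank 19) under Ago2 knockout and 5.76 ± 0.09 (54.0-fold, rank 17) in cells labelled Upf1 knockout. These 3 recoveries share the untagged libraries. Where Ago2 was knocked out it was larger in experiment 3 (6.14) than in experiment 4 (5.60), and the difference between experiments passed the test (edgeR adjusted p = 0.033, where 6.15% of genes did so). In HA-Tnrc6a cells the corresponding values, 6.03 and 5.56, did not pass that test (adjusted p = 0.38), nor did those of the other 4 inhibitors (0.365% of genes passed).

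Cdkn1b (ENSMUSG00000003031, 6:134920401-134925525) encodes p27, which holds quiescent cells out of the cycle. It was recovered with HA-Tnrc6a as well, at 3.68-fold. Untagged IPs held 41.1, 58.3 and 55.2 CPM in experiment 3 and 35.0, 33.5 and 37.2 CPM in experiment 4. HA-Tnrc6a IPs held 166, 161 and 142 CPM and then 136, 107 and 107 CPM, with no overlap with the untagged libraries. The log2 recovery was 1.88 ± 0.10 in HA-Tnrc6a cells, 1.83 ± 0.08 under Ago2 knockout and 2.07 ± 0.09 in cells labelled Upf1 knockout, each called, at ranks 1559, 1571 and 1393.

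Cdkn1c (ENSMUSG00000037664, 7:143458339-143461059), the imprinted gene of p57, had a recovery below 0. Recovery is a scaled ratio, so this is relative to other RNAs, and the median of all genes was −0.10 in HA-Tnrc6a cells. Untagged IPs held 20.0, 17.0 and 18.9 CPM in experiment 3 and 12.1, 11.6 and 11.5 CPM in experiment 4, and HA-Tnrc6a IPs held 7.9, 9.3 and 9.9 CPM and then 10.2 CPM in all 3 libraries. The groups did not overlap within either experiment, but were close in experiment 4. The log2 recovery was −0.42 ± 0.10 in HA-Tnrc6a cells (edgeR adjusted p = 7.5e-04), −0.57 ± 0.11 under Ago2 knockout and −0.40 ± 0.14 in cells labelled Upf1 knockout. It rested on experiment 3: in HA-Tnrc6a cells it was −0.75 there and −0.09 in experiment 4, where the test was not passed (adjusted p = 0.64). The untagged cells differed more between experiments than the tagged ones. The log2 ratio of IP to input averaged −0.62 in experiment 3 and −0.50 in experiment 4 in HA-Tnrc6a cells. In untagged cells it averaged 0.13 and then −0.37. In cells labelled Upf1 knockout the call was lost without IP replicate 1 of experiment 3 of that genotype (−0.31, adjusted p = 0.053), and fits of experiment 4 alone gave no call in HA-Tnrc6a cells or in these.

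The INK4 mRNAs of this set, Cdkn2d and Cdkn2c, had lower fitted recoveries than Cdkn1a and Cdkn1b, and the interval of Cdkn2c was wide. Cdkn2d (ENSMUSG00000096472, 9:21288459-21291421) encodes p19. It was at 9.35 to 12.9 CPM in untagged IPs, at 15.6 to 19.4 CPM in HA-Tnrc6a IPs of experiment 3 and at 10.3 to 11.6 CPM in those of experiment 4, so the groups overlapped in experiment 4. Its log2 recovery was 0.42 ± 0.11 in HA-Tnrc6a cells (adjusted p = 0.0013) and 0.43 ± 0.10 in cells labelled Upf1 knockout (edgeR adjusted p = 4.0e-04). For Ago2 knockout cells the value was 0.21 ± 0.12, which did not pass (adjusted p = 0.13). With library totals in place of TMM, the value for cells labelled Upf1 knockout fell to 0.17 and its call was lost. For Cdkn2c (ENSMUSG00000028551, 4:109660876-109666756), the p18 gene, the log2 recovery of 0.36 ± 0.45 in HA-Tnrc6a cells had a 95% interval of −0.56 to 1.28 and did not pass, nor did the value of 0.51 under Ago2 knockout or that of 0.71 in cells labelled Upf1 knockout. Without any 1 library these were 0.14 to 0.64, 0.29 to 0.76 and 0.44 to 0.95, and the last of them passed without untagged input replicate 3 of experiment 4 (edgeR adjusted p = 0.0498).

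In HA-Tnrc6a cells, 4 of the 5 inhibitors thus passed the test in either direction, where 62% of all 19993 genes did, and 3 of the 5 were higher, where 29.8% of genes were. In Ago2 knockout cells 3 of 5 passed (64.7% of genes) and in cells labelled Upf1 knockout 4 of 5 (63.6% of genes). The counts in either direction are near the background, and that of higher members rests on 5 genes. The inhibitors differed in size: the order Cdkn1a, Cdkn1b, then Cdkn2d and Cdkn2c, then Cdkn1c was that of the fitted values in HA-Tnrc6a cells, with the interval of Cdkn2c overlapping those of both Cdkn2d and Cdkn1c. Scaling by library totals moved the median log2 recovery of all genes by −0.16 in HA-Tnrc6a cells, −0.15 under Ago2 knockout and −0.26 in cells labelled Upf1 knockout, and the values of single genes move by about as much.

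**Figure D2:**
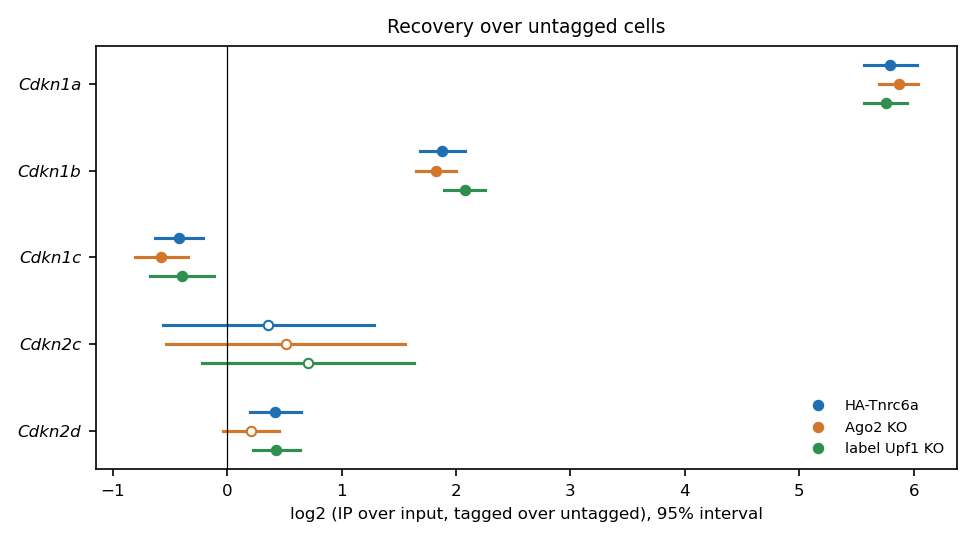
Log2 recovery (IP over input in the tagged genotype less the same in untagged cells) of each inhibitor mRNA in the 3 tagged genotypes, with 95% intervals from the edgeR fit. Filled points have an adjusted p under 0.05, open points do not. Cdkn1a lies at 5.76 to 5.87, Cdkn1b at 1.83 to 2.07, and Cdkn1c below 0.

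The distance between Cdkn1a and the other inhibitors was tested on ratios that set each IP against the input of equal number (called a lysate here). That pairing was assumed: deviations of such IPs and inputs correlated at a mean of 0.10 over 24 pairs. The measure was the log2 IP-to-input ratio of Cdkn1a less that of the other mRNA, compared by an exact permutation test (two-sided) of the genotype labels within each experiment, with 6 lysates a genotype. There were 400 labelings, the smallest p they allow is 0.005, and p-values were adjusted over 20 tests. The log2 IP-to-input ratio of Cdkn1a itself averaged 5.45 ± 0.44 (SD, n = 6) in HA-Tnrc6a lysates, with values from 4.93 to 6.05, and −0.31 ± 0.15 (SD, n = 6) in untagged lysates. From untagged to HA-Tnrc6a lysates, the ratio rose more for Cdkn1a than for Cdkn1b by 3.90, than for Cdkn2d by 5.36, than for Cdkn2c by 5.47 and than for Cdkn1c by 6.20. Each of these 4 differences had the smallest p (exact permutation p = 0.005, adjusted p = 0.014). The tagged and untagged lysates did not overlap in any of them.

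Relative to other RNAs, Cdkn1a and Cdkn1b were slightly lower on the beads alone than in the inputs. The median log2 ratio of IP to input of all genes was −0.03 in untagged cells, and −0.20 with scaling by library totals. In untagged cells the log2 ratio of IP to input was −0.32 ± 0.06 for Cdkn1a and −0.32 ± 0.07 for Cdkn1b, both called, so 2 of 5 members passed where 35.7% of genes did. For Cdkn1c (−0.13), Cdkn2d (−0.02) and Cdkn2c (−0.06) the ratio did not pass. That of Cdkn1c had opposite signs in the experiments, with a mean of 0.13 in experiment 3 and −0.37 in experiment 4. In a fit of experiment 3 alone neither Cdkn1a nor Cdkn1b passed (both −0.24).

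None of the 5 inhibitors passed the test for a change in recovery between either knockout and HA-Tnrc6a cells. For Cdkn1a, the log2 recovery in Ago2 knockout cells less that in HA-Tnrc6a cells was 0.07 ± 0.11, with a 95% interval of −0.15 to 0.28 (edgeR adjusted p = 0.72). In cells labelled Upf1 knockout the same difference was −0.05 ± 0.11, with an interval of −0.27 to 0.17 (edgeR adjusted p = 0.88). Both intervals span 0 and are narrow beside the recovery itself. Across all genes, 21.3% passed in the Ago2 comparison and 4.49% in the Upf1 comparison.

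The other inhibitors gave intervals of differing width, widest for Cdkn2c. In Ago2 knockout cells the differences were −0.06 for Cdkn1b (interval −0.22 to 0.10), −0.16 for Cdkn1c (−0.37 to 0.05), −0.22 for Cdkn2d (−0.46 to 0.02) and 0.14 for Cdkn2c (−0.65 to 0.94). In cells labelled Upf1 knockout they were 0.18 for Cdkn1b (0.03 to 0.34, adjusted p = 0.19), 0.01 for Cdkn1c (−0.27 to 0.29), −0.00 for Cdkn2d (−0.20 to 0.19) and 0.34 for Cdkn2c (−0.33 to 1.01). The interval of Cdkn1b in cells labelled Upf1 knockout lies above 0 although the adjusted p misses the threshold. Set beside Trim71, the RNA-binding protein whose mRNA was recovered at 2.17 ± 0.09 in HA-Tnrc6a cells, the contrast is with a log2 loss of recovery in Ago2 knockout cells of −0.48 ± 0.09 (edgeR adjusted p = 8.9e-05).

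**Figure D3:**
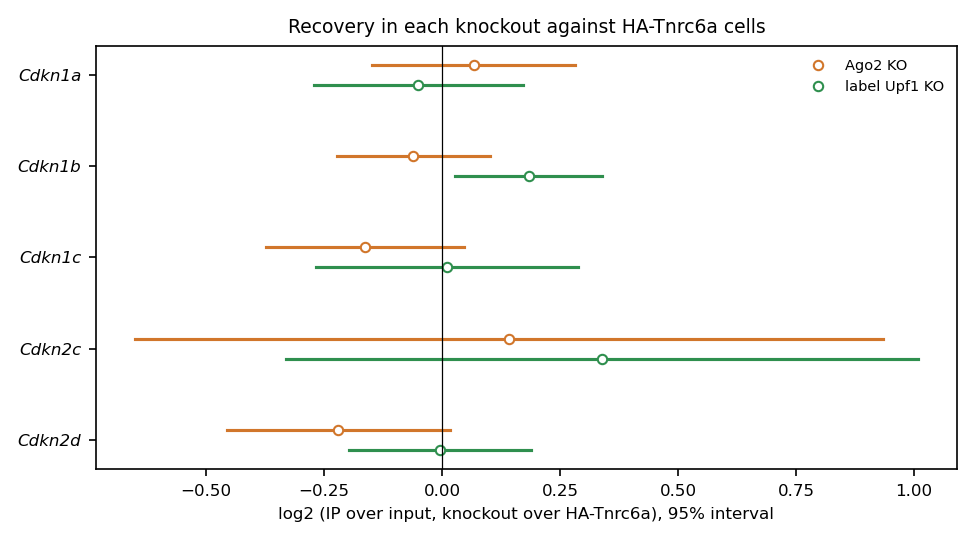
Log2 recovery of each inhibitor mRNA in each knockout less that in HA-Tnrc6a cells, with 95% intervals from the edgeR fit. All 10 points are open, which marks an adjusted p of 0.05 or more, and those of Cdkn1a lie at 0.07 and −0.05.

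Between the knockouts, Cdkn1b was recovered less in Ago2 knockout cells than in cells labelled Upf1 knockout, by −0.22 ± 0.07 (edgeR adjusted p = 0.017), so 1 of 5 passed where 24.4% of genes did. That call depended on single libraries: leaving out any 1 of 8 of the 24 libraries ended it, with values down to −0.14 without IP replicate 1 of experiment 4 labelled Upf1 knockout. The others that ended it were inputs 2 and 3 of Ago2 knockout in both experiments, IP 2 of Ago2 knockout in experiment 3, and IPs 1 and 3 of experiment 3 labelled Upf1 knockout. The contrast within experiment 3 passed in the fit of both experiments (−0.30, edgeR adjusted p = 0.035) and that within experiment 4 did not (−0.14, adjusted p = 0.39). In separate fits of each experiment neither passed, and the call was also lost with library totals (−0.14). For Cdkn1a the difference between the knockouts was 0.14 ± 0.09 (adjusted p = 0.28). It passed without IP replicate 1 of experiment 4 labelled Upf1 knockout (0.26) and with library totals (0.22), a scaling that moves the median of all genes in the same direction.

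In the lysate-by-lysate test, the change in recovery of Cdkn1a in Ago2 knockout cells passed against none of the other inhibitors (differences of −0.11 to 0.30, exact permutation, adjusted p from 0.077 to 0.815). It passed against Cdkn2d without HA-Tnrc6a replicate 1 of experiment 3 (0.35) or of experiment 4 (0.38), and against Cdkn1b without the latter (0.18). In cells labelled Upf1 knockout it was lower than that of Cdkn1b by 0.23 on the log2 scale, written as a difference of −0.23 (exact permutation p = 0.025, adjusted p = 0.042). Without any 1 of 5 lysates (HA-Tnrc6a replicate 1 of either experiment, or replicate 1 of experiment 3 and replicates 2 and 3 of experiment 4 labelled Upf1 knockout), the adjusted p of this difference was above the threshold, at up to 0.077. Against Cdkn1c, Cdkn2c and Cdkn2d the test was not passed (adjusted p from 0.14 to 0.815).

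In Ago2 knockout lysates Cdkn1a was higher and Cdkn1b lower than in HA-Tnrc6a lysates. Cdkn1a was at 44.8, 42.1 and 47.6 CPM in experiment 3 and at 35.3, 35.8 and 37.4 CPM in experiment 4, against 41.5, 47.1 and 42.5 CPM and then 27.6, 29.8 and 29.9 CPM in HA-Tnrc6a inputs. The groups overlapped in experiment 3 and were apart in experiment 4. The log2 fold change was 0.17 ± 0.04 (1.13-fold, edgeR adjusted p = 9.9e-04), made up of 0.04 in experiment 3 and 0.31 in experiment 4, a difference between experiments that passed (adjusted p = 0.040). In 1 fit of all 48 libraries the change was 0.18 and did not pass (adjusted p = 0.11).

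Cdkn1b moved the other way. It was at 40.8, 47.1 and 46.4 CPM in Ago2 knockout inputs of experiment 3 and at 34.8, 36.2 and 35.5 CPM in those of experiment 4, against 52.5 to 54.4 CPM and then 41.0, 37.8 and 39.6 CPM in HA-Tnrc6a inputs. It was lower without overlap in both experiments, by a log2 fold change of −0.21 ± 0.04 (edgeR adjusted p = 4.3e-05). Cdkn1c (−0.03 ± 0.06) and Cdkn2d (−0.09 ± 0.08) did not pass. For Cdkn2c, at 0.23 to 0.61 CPM against 0.35 to 1.30 CPM, the value of −0.74 ± 0.29 did not pass (adjusted p = 0.052). It passed when Ago2 knockout input replicate 3 of experiment 4 (−0.97), Ago2 knockout input replicate 1 of experiment 3 (−0.84) or HA-Tnrc6a input replicate 1 of experiment 4 (−0.81) was left out. Hence 2 of 5 inhibitors passed where 30.9% of genes did, and 1 of 5 differed between experiments where 5.94% of genes did. On the scale of single lysates, the change of Cdkn1a exceeded that of each other inhibitor, by 0.21 for Cdkn1c to 0.89 for Cdkn2c (exact permutation, adjusted p of 0.014 to 0.020).

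Untagged inputs were set against the same HA-Tnrc6a inputs. Cdkn1a was at 40.3, 47.4 and 48.8 CPM in untagged inputs of experiment 3 and at 42.3, 45.7 and 39.0 CPM in those of experiment 4. The HA-Tnrc6a inputs of experiment 4 were thus the lower group in both comparisons. The log2 fold change of untagged against HA-Tnrc6a inputs was 0.30 ± 0.05 (edgeR adjusted p = 1.4e-04), with 0.06 in experiment 3 and 0.54 in experiment 4, which differed (adjusted p = 0.0078). Cdkn1b was higher in untagged inputs by 0.21 ± 0.04 and Cdkn1c by 0.19 ± 0.07 (adjusted p = 0.049). The call for Cdkn1c was lost when any 1 of 10 of the 12 libraries was left out, all but untagged input replicate 2 of experiment 3 and untagged input replicate 1 of experiment 4 (0.16 to 0.20). So 3 of 5 passed where 15.4% of genes did, and 1 of 5 differed between experiments where 3.4% of genes did.

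In cells labelled Upf1 knockout, the inhibitor that changed most in the lysate was Cdkn1c. It was at 8.6, 7.9 and 8.3 CPM in experiment 3 and at 3.3, 4.0 and 3.4 CPM in experiment 4, against 13.9, 13.7 and 13.9 CPM and then 14.5, 13.9 and 14.8 CPM in HA-Tnrc6a inputs. The libraries labelled Upf1 knockout were the lowest of all 24 inputs, those of experiment 4 below those of experiment 3. The log2 fold change was −1.38 ± 0.07, a level of 0.384 times that of HA-Tnrc6a inputs (edgeR adjusted p = 2.0e-21). It was −0.75 in experiment 3 and −2.01 in experiment 4, and these differed (adjusted p = 1.4e-08). Fewer cells expressing a gene and less RNA per cell cannot be told apart in such bulk lysates. The summed fibroblast markers (46.5 to 57.4 CPM against 35.9 to 48.1 CPM in HA-Tnrc6a inputs) and the 2 of 4 trophoblast markers in the table (8.15 to 15.1 CPM against 5.87 to 8.42 CPM) were mostly higher in these inputs. Most of the fibroblast sum came from Thy1 and Pdgfrb, since over all inputs Col1a1 reached at most 4.31 CPM and Col1a2 0.71 CPM. The summed endoderm markers spread to both sides of the HA-Tnrc6a inputs (8.6 to 48.6 CPM against 16.5 to 24.3 CPM). The summed neural markers (5.68 to 14.8 CPM against 5.42 to 16.6 CPM) and mesoderm markers (1.30 to 2.26 CPM against 0.85 to 1.70 CPM) overlapped those of HA-Tnrc6a inputs. The summed embryonic stem cell markers overlapped too but reached lower, at 6400 to 7113 CPM against 6911 to 7500 CPM. The part of cells with any of these markers in the change of Cdkn1c was not tested.

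The other inhibitors changed by less in cells labelled Upf1 knockout. Cdkn1b was at 59.4, 61.7 and 61.9 CPM in experiment 3 and at 48.1, 47.4 and 51.5 CPM in experiment 4, above every HA-Tnrc6a input of the same experiment. Its log2 fold change was 0.26 ± 0.03 (edgeR adjusted p = 1.35e-08). Cdkn2d, at 13.6 to 15.3 CPM in experiment 3 and 9.39 to 10.6 CPM in experiment 4, was higher by 0.20 ± 0.07 (edgeR adjusted p = 0.011), though neither experiment passed alone. For Cdkn1a, at 40.6, 37.9 and 37.2 CPM and then 30.2, 29.1 and 29.9 CPM, the value was −0.07 ± 0.04 (95% interval −0.15 to 0.01, adjusted p = 0.14). Its sign differed between experiments, at −0.19 in experiment 3, where it passed, and 0.05 in experiment 4, where it did not. Cdkn2c (−0.16 ± 0.27) did not pass. In all, 3 of 5 passed where 58.6% of genes did, and 1 of 5 differed between experiments where 11.6% of genes did.

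Lysate by lysate, the change of Cdkn1a in cells labelled Upf1 knockout was above that of Cdkn1c by 1.29 (exact permutation, adjusted p = 0.014). It was below that of Cdkn1b, with a difference of −0.33 (adjusted p = 0.014, exact permutation), and below that of Cdkn2d, with −0.27 (adjusted p = 0.027, exact permutation). The last of these was lost without the lysate of experiment 3 replicate 1 labelled Upf1 knockout (adjusted p = 0.055). Against Cdkn2c the value of 0.14 did not pass (adjusted p = 0.61).

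Set against each other, the inputs of the knockouts differed for 4 of the 5 inhibitors, where 62.3% of genes differed. Ago2 knockout inputs held more Cdkn1a (0.25 ± 0.04) and more Cdkn1c (1.35 ± 0.08) than inputs labelled Upf1 knockout, and less Cdkn1b (−0.46 ± 0.04) and Cdkn2d (−0.29 ± 0.07). Cdkn1a, Cdkn1b and Cdkn1c kept their direction and passed in each experiment, with 0.24 and 0.26 for Cdkn1a. Only for Cdkn1c did the experiments differ (0.64 and 2.07, adjusted p = 1.3e-09), where 13.1% of genes did.

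**Figure D4:**
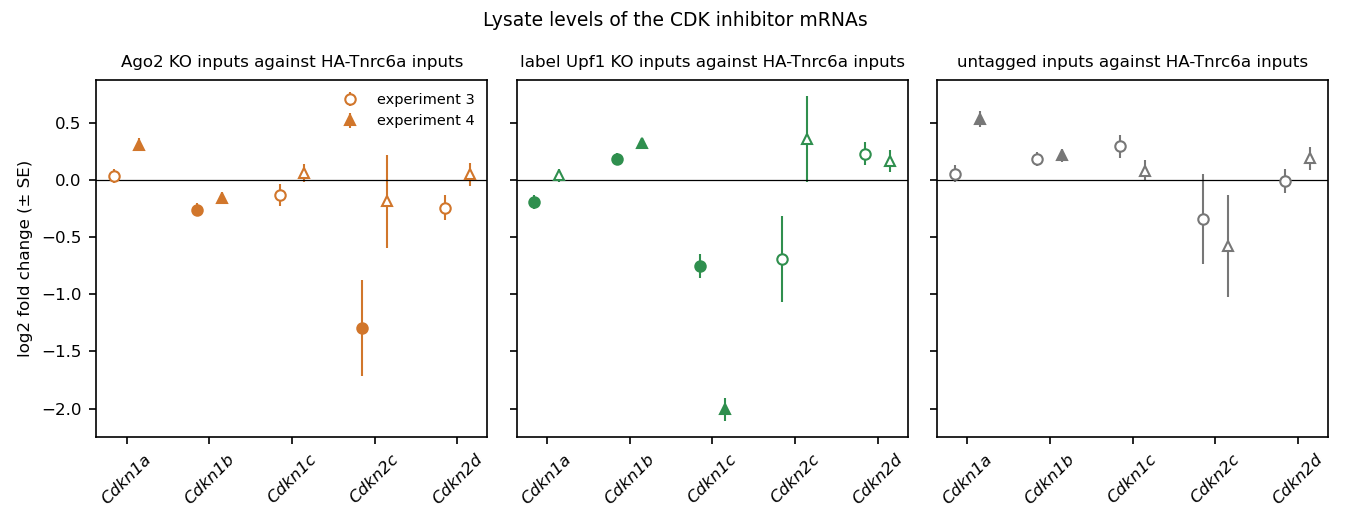
Log2 fold change (± SE) of the inhibitor mRNAs in inputs of Ago2 knockout, label Upf1 knockout and untagged cells against HA-Tnrc6a inputs, separately for experiment 3 (circles) and experiment 4 (triangles). Filled symbols have an adjusted p under 0.05 in that experiment. Cdkn1c in cells labelled Upf1 knockout lies at −0.75 and −2.01, and Cdkn1a in Ago2 knockout cells at 0.04 and 0.31.

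The kinases and cyclins that the inhibitors bind were recovered with HA-Tnrc6a unevenly. Of 11 cyclins and CDKs, 9 were higher and 1 lower (62% of all genes passed, 29.8% as higher), with a median log2 recovery of 0.76 against −0.10 over all genes. Ccne2, a cyclin E that activates Cdk2, was at 4.73 ± 0.14, Ccnd1, a cyclin D that activates Cdk4 and Cdk6, at 2.42 ± 0.07 and Ccnd3 at 1.96 ± 0.07, while Cdk4 was at −0.17 ± 0.06. Under Ago2 knockout, 7 of the 11 lost recovery and 2 gained it (21.3% of all genes passed), with Ccne2 at −0.57 ± 0.11 and Cdk4 at −0.42 ± 0.06. In lysates of Ago2 knockout cells 6 rose and 3 fell (30.9% of all genes passed), led by Ccnd2 (1.32 ± 0.08) and Ccnd1 (0.81 ± 0.03). In lysates labelled Upf1 knockout 3 rose and 7 fell (58.6% of all genes passed), with Ccnd2 at −1.70 ± 0.13.

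Parts of the ubiquitin ligases that turn over p21 and p27 split by direction. Of 9 in the table, 4 were recovered above and 5 below the untagged background, where 62% of all genes passed, with a median of −0.34. Dtl, which recruits p21 to the Cul4 ligase, was at 2.51 ± 0.09 and Skp2, which recruits p27 to the Cul1 ligase, at 1.61 ± 0.08, whereas the scaffold Cul4b was at −0.63 ± 0.08. In Ago2 knockout cells 3 gained and 3 lost recovery, where 21.3% of all genes passed, with Skp2 at −0.51 ± 0.06. None of the 9 passed in edgeR's test in cells labelled Upf1 knockout, where 4.49% of all genes did.

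Of p53 (Trp53) and the genes it activates, 13 of 20 were recovered above the background, where 29.8% of all genes were, and 1 below, with a median of 0.80. Btg2, an antiproliferative deadenylase cofactor, was at 4.13 ± 0.10, Sesn2 at 3.14 ± 0.08 and Plk3 at 2.08 ± 0.13, while the apoptosis gene Bax was at −0.42 ± 0.08. Trp53 itself was at 0.06 ± 0.08. In lysates of Ago2 knockout cells 6 of the 20 rose and 6 fell, beside 30.9% of all genes in either direction, among them Ccng1 (0.40 ± 0.03) and Pmaip1 (−0.62 ± 0.03). In lysates labelled Upf1 knockout 8 of 19 rose and 6 fell, beside 58.6% of all genes, with Gdf15 at 0.73 ± 0.08 and Trp53 at −0.24 ± 0.02.

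Genes reported as targets of the miR-290 and miR-302 families or of Trim71 in stem cells were all recovered: 12 of 12 were higher, where 29.8% of all genes were, with a median of 3.06 and a range of 1.23 to 5.08. Like the other lists, this one was chosen with earlier results of these data known, so the count is a description. The retinoblastoma relative Rbl2 was at 5.08 ± 0.13, the caspase gene Casp2 at 4.83 ± 0.13 and the splicing factor gene Mbnl1 at 4.36 ± 0.13, so that Cdkn1a, at 5.80, lay above every gene of this list. In Ago2 knockout cells 3 gained and 2 lost recovery (21.3% of all genes passed), with Ei24 at −0.76 ± 0.09 and Mbnl1 at −0.53 ± 0.12. In lysates of Ago2 knockout cells 5 rose and 1 fell (30.9% of all genes), led by the Nodal antagonist Lefty1 (1.21 ± 0.09) and Ei24 (0.50 ± 0.03). In lysates labelled Upf1 knockout 2 rose and 5 fell (58.6% of all genes), with the immediate early gene Egr1 at −2.01 ± 0.04 and Mbnl1 at −1.36 ± 0.09.

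**Figure D5:**
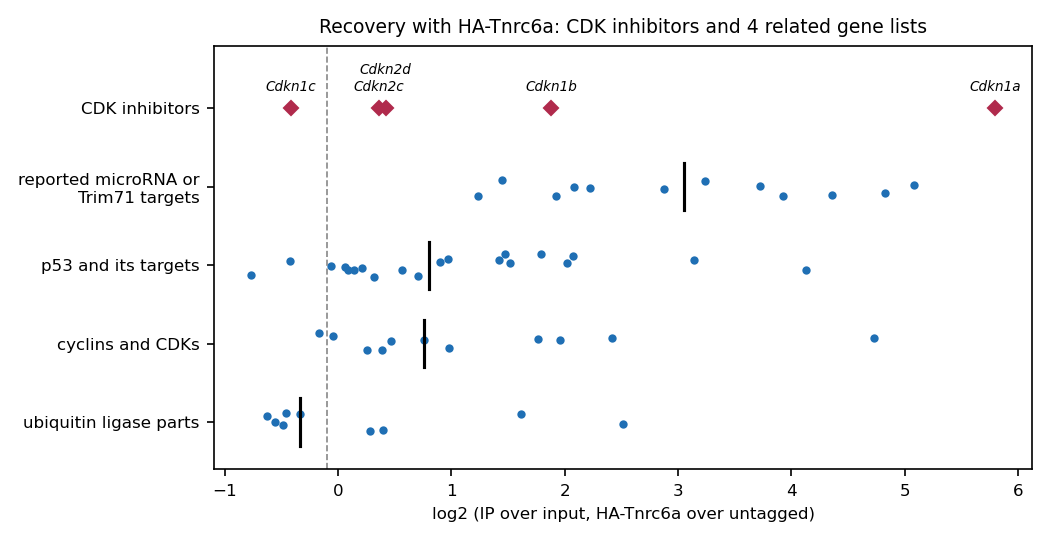
Log2 recovery with HA-Tnrc6a over untagged cells for the 5 inhibitors (diamonds) and for the genes of 4 related lists (points, spread vertically for legibility). Black bars are list medians, at 3.06, 0.80, 0.76 and −0.34 from top to bottom, and the dashed line is the median of all genes (−0.10). Cdkn1a, at 5.80, lies to the right of every gene in the 4 lists.

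The genes whose level followed Cdkn1a most closely over the 48 libraries were AC167363.2, Prr13, Lpin2, Prdm4 and Dnajb5, with Pearson correlations of log2 CPM of 0.996, 0.996, 0.996, 0.996 and 0.995 among 10836 genes compared. These points fall into recovered and not recovered libraries, which any gene recovered in tagged IPs shares. The 5 genes were themselves recovered with HA-Tnrc6a, at 5.58 for AC167363.2, 3.39 for Prr13, 3.00 for Lpin2, 3.40 for Prdm4 and 3.71 for Dnajb5. Among the other inhibitors the correlation was 0.936 for Cdkn1b, 0.487 for Cdkn2d, 0.379 for Cdkn2c and −0.468 for Cdkn1c. Over the 24 inputs, where no IP enters, the closest genes were Heca (0.881), Alkbh5 (0.876), Rev1 (0.872), Arl8a (0.866) and Rpl23a (0.855), and libraries there share experiment and depth. Over these inputs Cdkn1c was at 0.505, Cdkn2d at 0.479, Cdkn1b at 0.415 and Cdkn2c at 0.361.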

How the data were processed

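RIP-seq libraries were made with a stranded total RNA kit, per the labels' protocols. The submitters' processing notes name bcl2fastq 2.20, STAR 2.7.3a and GRCm38. The counter and its strand setting are not given in the sources used here. The authors deposited raw counts per gene and library, without normalization, and further columns headed RPKM. The latter are a scaled signal made by the authors: each is the count divided by 1 factor per library, and they served only in an alternative scaling. Columns numbered 1 to 3 were read as experiment 3 and columns 4 to 6 as replicates 1 to 3 of experiment 4, an inferred mapping.

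Counts were fitted with edgeR 4.0.16 (limma 3.58.1, R 4.3.3): TMM scaling, filterByExpr with a minimum count of 10, robust quasi-likelihood fit of the groups compared, contrasts formed within each experiment and averaged, two-sided tests, Benjamini-Hochberg adjustment over all genes tested, called under 0.05. All 5 members passed the filter in every comparison. SE is the log2 fold change divided by the square root of F. Log2 CPM used a prior count of 2, and lysate ratios set each IP against the input of the same number. Coordinates are RefSeq's for GRCm38.p6, and gene lengths are those deposited with the counts. Where a symbol had 2 rows (Lats2), the row with more counts was used. Alternatives were RLE factors, library totals, the authors' factors, library totals without Tnrc6a, no filter, DESeq2 1.42.0, 1 fit of all libraries, each experiment alone, IPs without inputs, replicate blocks and leaving out each library; the authors' factors and totals without Tnrc6a were chosen after seeing the data. On simulated counts, 98% of genes changed by a log2 of 1 were recovered in the HA-Tnrc6a over untagged comparison. Only genes with higher mean counts than Cdkn2c were changed, and counts were drawn with the trended dispersion. The share thus does not cover Cdkn2c or genes that vary more than the trend.

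The members and gene lists were chosen with earlier results of these data known. Named are the 5 members, Trim71, Tnrc6a, Ago2 and Upf1, up to 3 list genes per direction (called, same sign in both experiments, mean log2 CPM of at least 3, largest first; Trp53, at 0.06 in recovery, was named outside this rule), and the 5 genes most correlated with Cdkn1a. Intervals cover the spread between libraries. Without molecular identifiers, reads cannot be counted as separate molecules.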

Additional observations from a re-analysis of the deposited data

Results flagged for a closer look

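Each of these results was singled out because the same contrast differed between experiments 3 and 4 by a test of that difference (edgeR, adjusted over all genes tested). The recovery of Cdkn1a in Ago2 knockout cells over untagged cells was lower in experiment 4 than in experiment 3, with a log2 difference of −0.54. The lysate level of Cdkn1a in Ago2 knockout cells against HA-Tnrc6a cells was higher in experiment 4, by 0.27, and that in untagged cells against the same HA-Tnrc6a inputs by 0.48. The lysate level of Cdkn1c in cells labelled Upf1 knockout against HA-Tnrc6a cells was lower in experiment 4, with a difference of −1.25. In Ago2 knockout inputs against inputs labelled Upf1 knockout, Cdkn1c was higher in experiment 4 by 1.43, and both of these contrasts use the same inputs labelled Upf1 knockout.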

How the results depend on the processing

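Of 592 values of the 5 inhibitors under settings other than leaving out a library, 521 kept their direction and side of the threshold, 27 lost a call, 19 gained one and 25 changed sign. The recovery of Cdkn1a over untagged cells kept its call under every alternative run. Without any 1 library it was 5.72 to 5.86 in HA-Tnrc6a cells, 5.81 to 5.91 in Ago2 knockout cells and 5.64 to 5.81 in cells labelled Upf1 knockout. Cdkn2c, with 3 to 34 counts per input library, is limited by depth. The cause of the changes below was not tested except where stated.

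The change in recovery of Cdkn1a in Ago2 knockout against HA-Tnrc6a cells passed with IPs compared without inputs (0.28; without any 1 library 0.0077 to 0.14). Against cells labelled Upf1 knockout it passed with library totals (0.22), totals without Tnrc6a (0.24), experiment 3 alone (0.42) and no inputs (0.40), and turned to −0.10 in experiment 4 alone (without any 1 library 0.094 to 0.26). In cells labelled Upf1 knockout against HA-Tnrc6a cells it turned to 0.16 in experiment 4 alone (without any 1 library −0.19 to −0.0054). The bead background of Cdkn1a lost its call in experiment 3 alone (−0.24; without any 1 library −0.36 to −0.29). In inputs, the Ago2 knockout change lost its call in 1 fit of all 48 libraries (0.18) and in experiment 3 alone (0.037), and the untagged change in experiment 3 alone (0.056). The change labelled Upf1 knockout passed in experiment 3 alone (−0.19) and turned to 0.045 in experiment 4 alone. Without any 1 library these inputs gave 0.16 to 0.20, 0.27 to 0.34 and −0.092 to −0.042, and those of the knockouts against each other 0.22 to 0.27.

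Other inhibitors changed sign as follows. Experiment 4 alone gave −0.087 for Cdkn2d recovery in Ago2 knockout over untagged cells and 0.041 for Cdkn1b recovery in Ago2 knockout against HA-Tnrc6a cells. It gave −0.11 for Cdkn1c and 0.075 for Cdkn2d recovery in cells labelled Upf1 knockout, 0.0056 for the bead background of Cdkn2d, 0.069 and 0.056 for Cdkn1c and Cdkn2d in Ago2 knockout inputs, and 0.36 for Cdkn2c in inputs labelled Upf1 knockout. Experiment 3 alone gave 0.076 for Cdkn2d recovery between the knockouts, 0.13 for the bead background of Cdkn1c and −0.011 for Cdkn2d in untagged inputs. IPs without inputs gave −0.56 for Cdkn2c in Ago2 knockout cells, −1.41 and 0.16 for Cdkn1c and Cdkn2d in cells labelled Upf1 knockout, and 1.22 for Cdkn1c between the knockouts. The recovery change of Cdkn1c in cells labelled Upf1 knockout was −0.0077 with RLE factors, −0.081 with library totals, −0.044 with the authors' factors, −0.020 with no filter, −0.044 in 1 fit of all libraries, −0.084 with totals without Tnrc6a and −0.0079 with DESeq2. Without any 1 library, sign changes gave −0.091 to 0.0016 for Cdkn1b and −0.015 to 0.38 for Cdkn2c recovery in Ago2 knockout cells, −0.080 to 0.052 for Cdkn1c and −0.079 to 0.023 for Cdkn2d recovery in cells labelled Upf1 knockout, −0.39 to 0.095 for Cdkn2c between the knockouts, and −0.35 to 0.16 for Cdkn2c and −0.042 to 0.029 for Cdkn2d on the beads of untagged cells.

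With 3 lysates a genotype, the exact permutation test of 1 experiment cannot go below a p of 0.1, so called differences between Cdkn1a and another inhibitor lose their call there by construction. Values of that difference are given for experiment 3, for experiment 4 and as the range without any 1 lysate. For recovery from untagged to HA-Tnrc6a lysates they were 4.22, 3.57 and 3.84 to 4.00 against Cdkn1b, 6.77, 5.63 and 6.08 to 6.29 against Cdkn1c, 5.46, 5.49 and 5.13 to 5.73 against Cdkn2c, 5.52, 5.19 and 5.27 to 5.42 against Cdkn2d. For recovery in Ago2 knockout lysates they were 0.25, 0.015 and 0.10 to 0.18 against Cdkn1b, 0.20, 0.25 and 0.13 to 0.34 against Cdkn1c, −0.094, −0.12 and −0.35 to 0.12 against Cdkn2c, 0.19, 0.41 and 0.24 to 0.38 against Cdkn2d. For recovery in lysates labelled Upf1 knockout they were −0.37, −0.10 and −0.27 to −0.19 against Cdkn1b, −0.38, 0.27 and −0.19 to 0.062 against Cdkn1c, −0.75, −0.12 and −0.55 to −0.26 against Cdkn2c, −0.16, 0.076 and −0.13 to 0.036 against Cdkn2d. For Ago2 knockout inputs they were 0.29, 0.47 and 0.35 to 0.42 against Cdkn1b, 0.17, 0.24 and 0.17 to 0.24 against Cdkn1c, 1.24, 0.55 and 0.77 to 1.03 against Cdkn2c, 0.28, 0.26 and 0.21 to 0.31 against Cdkn2d. For inputs labelled Upf1 knockout they were −0.37, −0.28 and −0.36 to −0.30 against Cdkn1b, 0.56, 2.02 and 1.26 to 1.34 against Cdkn1c, 0.45, −0.16 and −0.0069 to 0.29 against Cdkn2c, −0.42, −0.12 and −0.32 to −0.24 against Cdkn2d.

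Counts of called genes moved by over 1.5 times in these settings. For recovery in Ago2 knockout cells (4267), 1623 were called in experiment 3 alone and 7482 with IPs without inputs. For recovery in cells labelled Upf1 knockout (896), experiments 3 and 4 alone gave 162 and 384, IPs without inputs 8805, and leaving out HA-Tnrc6a input replicate 2 or 3 of either experiment 591 to 596. Between the knockouts (4878) experiment 3 alone gave 2667 and no inputs 10794, and for the beads (6892) experiment 3 alone gave 1972. For Ago2 knockout inputs (6065) 1 fit of all libraries gave 3902 and experiment 3 alone 3382, and for untagged inputs (2990) 1937 and 652.

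Equal replicate numbers paired the libraries weakly on average. Deviations from the group means correlated at a mean of 0.068 for libraries with the same number over 168 pairs (−0.29 to 0.67). For IP and input of a genotype the mean was 0.10 over 24 pairs, and for libraries with different numbers −0.033 over 336 pairs. With the number as a replicate block the recovery of Cdkn1a in HA-Tnrc6a cells was 5.79, and with the lysate as a block 5.78. No block changed a call of the 5 inhibitors. Without the pairing of IP and input in the lysate ratios (no replicate block) 3 further differences passed, at 0.13 against Cdkn1b and 0.30 against Cdkn2d in Ago2 knockout recovery and −0.44 against Cdkn2c in recovery labelled Upf1 knockout.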

Other observations

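Genes next to the inhibitors and further members of the family, chosen after the values of the 5 inhibitors were seen, gave the following values. Cdkn1c lies in an imprinted cluster with Phlda2, Slc22a18 and the long noncoding RNA Kcnq1ot1. In inputs labelled Upf1 knockout Phlda2 was at 24.5 to 27.5 CPM in experiment 3 and 15.6 to 15.7 CPM in experiment 4, against 31.9 to 37.6 CPM and 27.7 to 33.9 CPM in HA-Tnrc6a inputs. Its log2 fold change was −0.66 ± 0.05 (edgeR adjusted p = 4.9e-15), with −0.38 in experiment 3 and −0.94 in experiment 4, beside −0.75 and −2.01 for Cdkn1c. For Slc22a18, another gene of the cluster (0.65 to 1.93 CPM in inputs), the value was 0.19 ± 0.18, and for Kcnq1ot1 (0.17 to 1.40 CPM) −0.02 ± 0.38, and neither passed.

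Cdkn2a and Cdkn2b, the INK4 genes of the p16 and p15 proteins, were at 1.13 to 4.23 and 0.18 to 1.47 CPM in inputs. In Ago2 knockout inputs Cdkn2a was lower than in HA-Tnrc6a inputs by a log2 fold change of −0.69 ± 0.16 (edgeR adjusted p = 0.0010), while Cdkn2b, at −0.65 ± 0.29, did not pass (adjusted p = 0.090). Lockd, a noncoding RNA transcribed downstream of Cdkn1b, fell as well, with −0.87 ± 0.18 (edgeR adjusted p = 1.1e-04), as did Cdkn3, a phosphatase of CDKs (−0.38 ± 0.08). Of these 7 genes, 4 passed with a recovery below 0 in HA-Tnrc6a cells, where 62% of all genes passed, 29.8% as higher and the rest of the 62% as lower. These 4, in the direction of Cdkn1c, were Cdkn3 (−0.85 ± 0.13), Phlda2 (−0.85 ± 0.10), Cdkn2a (−0.76 ± 0.26) and Lockd (−0.61 ± 0.26). The other 3 did not pass in HA-Tnrc6a cells, where Cdkn2b was at 0.77 ± 0.48. In Ago2 knockout cells Cdkn2b was recovered over untagged cells at 1.52 ± 0.47 (edgeR adjusted p = 0.0055), where 64.7% of all genes passed. It did not pass in cells labelled Upf1 knockout (0.43 ± 0.49). Between the knockouts its recovery was higher in Ago2 knockout cells by 1.12 ± 0.38 (edgeR adjusted p = 0.026), where 24.4% of all genes passed.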
